A study of Mus musculus with 8 samples.

Results

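The regions described here are open-chromatin sites that were listed in 7 of 8 DNase-seq libraries of mouse 3134 mammary epithelial cells. The library that did not list them came from cells that carried dominant-negative Snf2h in the repressed state. The same line listed them once the protein had been induced. The sites were chosen by listing alone. Hotspots, meaning stretches where DNase I cuts pile up, were merged across the 8 lists where they overlapped by 1 bp or more, and a site was kept if it was listed in the 7 other libraries and not in DNSnf2h cells with tetracycline. This gave 2043 of 99999 merged sites on mouse build mm9. A label such as "listed only after induction" describes the lists, not the cuts, because each list begins at its own lowest density and an unlisted site may have had cuts below it.

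Snf2h is the ATPase motor of the ISWI chromatin remodeling complexes, which slide nucleosomes along DNA and space them evenly. At regulatory DNA such sliding can expose or cover the stretches where transcription factors bind, and nucleases cut exposed DNA most readily. A catalytically dead motor still joins its partner subunits and so competes with the working enzyme, which is why such a form is called dominant negative.

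Isolated nuclei were digested with 60 to 80 U/ml of DNase I for 3 min, and fragments of 100 to 500 bp were sequenced. Induced DNSnf2h cells were kept without tetracycline for 48 h, and repressed DNSnf2h cells with it. That line carries human SNF2H with an N-terminal FLAG tag and with lysine 211 changed to arginine, delivered by a retroviral vector into 3134 cells that hold the tetracycline transactivator. DNCHD4 cells, induced and repressed in the same way, carry mouse Chd4 with a triple FLAG tag and lysine 250 changed to cysteine. Chd4 is the ATPase of the NuRD complex, which combines remodeling with histone deacetylation. DNBrg1 cells, induced and repressed likewise, carry a dominant-negative form of Brg1, an ATPase of the SWI/SNF complexes. The labels do not describe its construct. Parental 3134 cells without and with tetracycline have no such protein named in their labels. Each state of each line was measured in 1 library, so nothing below has a replicate check, no p-value is given, and differences describe libraries.

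The lists held 24890 to 78093 hotspots and began at a density of 5.09 to 16.4, equal to 26 to 45 tags. Density is the highest tag density of a hotspot on the scale the authors deposited. What each library was scaled to is unknown here. Total depth is unknown. All intervals are 95% intervals for counting error alone, because tags carry no molecular identifiers and may repeat one molecule.

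In induced DNSnf2h cells the sites were typical of their list, whose median density of 11.3 they shared. Their density without tetracycline was 8.06 at the lowest, 11.3 at the median and 37.3 at the highest, while the list with tetracycline began at 8.03. The median site held 56 tags and the lowest 40, and the weakest hotspot of the list with tetracycline held 43 tags of its own library. Set against 8.03, the density without tetracycline was at least 1.41-fold higher at the median site and at least 4.64-fold higher at the strongest. Here and below, such values assume that any density above the limit would have been listed. Of the 2043 sites, 605 (29.6%) were less than 25% above the limit, 214 (10.5%) were at least 2 times above it and 14 were at least 3 times above it. Over all 40310 sites of the line, 1.93% were at least 2-fold higher without tetracycline by the same rule. The sites were selected on this contrast, so their share is a description and nothing is read from it. At 1163 sites (56.9%) the exact Poisson lower limit of the density without tetracycline was above 8.03. At the other sites the gap to the limit was within counting error, and the error of the limit itself is not counted in this.

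**Figure D1:**
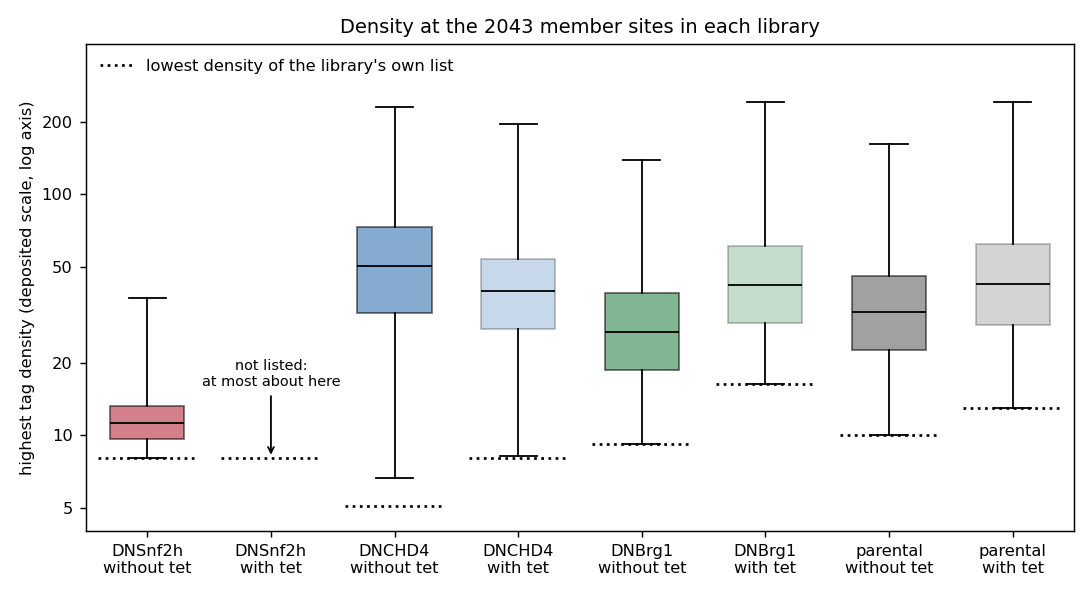
Highest tag density at the 2043 sites in each library on a log axis, with boxes for the quartiles, whiskers for the full range and a dotted line at the lowest density of that library's own list. DNSnf2h cells without tetracycline sit just above their limit at a median of 11.3, and the libraries of the other lines have medians of 26.8 to 50.5.

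**Figure D2:**
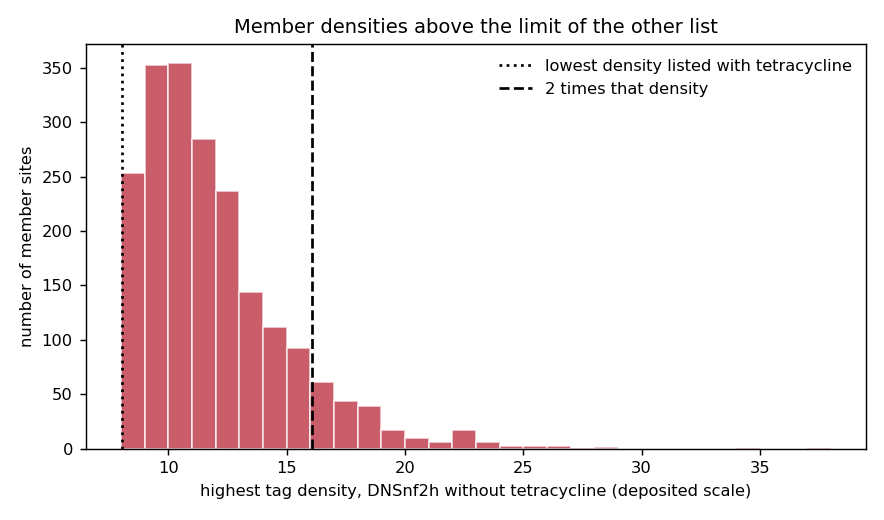
Number of sites by highest tag density in DNSnf2h cells without tetracycline, in bins of 1 density unit, with lines at 8.03, the lowest density listed with tetracycline, and at 2 times that value. Of the 2043 sites, 45 have the lowest density of 8.06, 605 lie less than 25% above the first line and 214 lie beyond the second line. The median is 11.3.

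Sites that crossed the limit the other way were fewer. Of the 14635 sites listed in the 7 other libraries, 14.0% were unlisted in DNSnf2h cells with tetracycline. Of the 13962 sites listed in the 7 libraries other than DNSnf2h without tetracycline, 1370 or 9.81% were unlisted in that library. Those 1370 sites had a median density of 11.4 with tetracycline, which is at least 1.41-fold above the lowest density listed without it, and 232 of them (16.9%) were at least 2 times above, beside 4.68% of all sites of the line at least 2-fold lower without tetracycline. The DNSnf2h libraries differed in list length, with 33793 hotspots without and 24890 with tetracycline. Leaving a site unlisted while all 7 others listed it happened in the other lines at 8.75% of the sites at most, in DNBrg1 cells without tetracycline. It happened at 3 sites and 1 site in DNCHD4 cells without and with tetracycline.

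The limit of 8.03 is that of the whole list, so hotspots near each site were looked at too. The list with tetracycline held a hotspot within 50 kb of 1606 sites (78.6%), and within 10 kb of 766 (37.5%). The median distance to the nearest one was 17397 bp. The lowest density it listed within 50 kb had a median of 10.6, so that the median site was 1.06 times its local value. At 695 of the 1606 sites the density without tetracycline was below that local value, and at 32 it was at least 2 times above. The lowest of a few listed hotspots cannot lie below 8.03 and will mostly lie above it. No higher local limit is therefore read from these values. Hotspots are numbered in the lists, with gaps in the numbering. In the list with tetracycline a number was missing at the position of 444 sites (21.7%). Of all intervals between its listed hotspots, 9.09% had a number missing. The first share is per site and the second per interval whatever its length, so no excess is read from them. The part of the missing numbers in the unlisted state was not tested. The 444 sites had a median density of 10.5 without tetracycline, and the 1597 sites with no number missing had 11.5.

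The strongest of the sites in induced DNSnf2h cells lies on chromosome 4 from 88658536 to 88659469. It had a density of 37.3 without tetracycline (32.1 to 43.1, exact Poisson) and was unlisted with it, at least 4.64-fold higher. No number was missing there, and 8 hotspots with tetracycline lay within 50 kb, the lowest at 13.1. In DNCHD4 cells this site had 110 without and 32.2 with tetracycline, 3.43-fold higher (2.90 to 4.08, exact binomial on tags). In DNBrg1 cells it had 57.9 and 34.6, 1.68-fold higher (1.253 to 2.27). In parental cells it had 93.7 without and 34.4 with tetracycline, 2.72-fold higher (2.20 to 3.40). The site was therefore higher without tetracycline in all 4 lines, including the one with no dominant-negative protein in its labels.

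A similar course was seen on chromosome 3 from 122840932 to 122841734. Density in DNSnf2h cells was 28.6 without tetracycline (24.1 to 33.7), at least 3.56-fold above the limit with it and 2.60 times the lowest local value of 11.02. Parental cells had 54.6 without and 24.8 with tetracycline, 2.20-fold higher (1.69 to 2.88). DNCHD4 cells had 42.7 and 21.1, 2.02-fold higher (1.61 to 2.55), and DNBrg1 cells 49.8 and 39.3, a ratio of 1.27 (0.956 to 1.70) whose interval included 1. Log2 ratios were also taken relative to the median of all sites listed in both libraries of a line. On that scale they were 1.54 in parental, 0.98 in DNCHD4 and 0.99 in DNBrg1 cells at this site.

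As deposited, other sites among the 8 strongest did not share that course. On chromosome 6 from 114918375 to 114919497, DNSnf2h cells had 28.2 without tetracycline, at least 3.51-fold above the limit. DNCHD4 cells had 206 without and 136.5 with tetracycline there, 1.51-fold higher (1.37 to 1.66). DNBrg1 cells had 117 and 138, and parental cells 113 and 126, a parental log2 ratio of -0.15. Relative to the median of each line the log2 ratios were above 0, at 0.56 in DNCHD4, 0.41 in DNBrg1 and 0.25 in parental cells. At this site the induced DNSnf2h density was far under that of every other line. The median member was lower too, with a log2 ratio of -1.49 against parental cells, both without tetracycline. On chromosome 10 from 80039851 to 80042168 the DNSnf2h density was 27.4 without tetracycline. Parental cells had 77.0 without and 115 with tetracycline, a log2 ratio of -0.58, DNBrg1 cells 73.0 and 116, a log2 ratio of -0.67, and DNCHD4 cells 115 and 101. Relative to the median of each line these ratios were -0.18 in parental and -0.024 in DNBrg1 cells.

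On chromosome 3 from 107669853 to 107670560 every other line was lower without tetracycline. DNSnf2h cells had 26.4 without tetracycline, at least 3.29-fold above the limit and 1.79 times the lowest of 6 local hotspots. DNCHD4 cells had 53.7 without and 79.8 with tetracycline, 1.49-fold lower (1.28 to 1.73). DNBrg1 cells had 35.0 and 76.2, 2.18-fold lower (1.70 to 2.79), and parental cells 48.9 and 78.4, 1.604-fold lower (1.32 to 1.95). The remaining 3 of the strongest 8 lie on chromosome 16 from 16911818 to 16912690, on chromosome 9 from 121766333 to 121767503 and on chromosome 3 from 145650397 to 145652031, with densities of 34.3, 26.8 and 26.6 in induced DNSnf2h cells. The chromosome 9 site has 1 number missing and no hotspot of the list with tetracycline within 50 kb. Its density without and with tetracycline was 96.9 and 96.6 in DNCHD4 cells, 67.9 and 86.1 in DNBrg1 cells, and 85.0 and 119.7 in parental cells. The last chromosome 3 site had 113 without and 75.3 with tetracycline in DNCHD4 cells, 37.0 and 63.3 in DNBrg1 cells, and 83.2 and 77.8 in parental cells. Log2 ratios relative to the median of each line follow in the order DNCHD4, DNBrg1 and parental. They were 0.53, -0.10 and 0.67 at the chromosome 16 site and -0.03, 0.30 and -0.09 at the chromosome 9 site. At the last chromosome 3 site they were 0.56, -0.13 and 0.50. At the chromosome 16 site and the chromosome 3 site named last the lowest local values were 27.8 and 22.8, so the densities without tetracycline were 1.23 and 1.17 times these.

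Many sites lay next to the limit. Sites on chromosome 1 from 22411958 to 22412724 and on chromosome 2 from 30442597 to 30443261 had 8.06 without tetracycline (5.76 to 10.98), the lowest density of that list, which they shared with other members, 45 in all. At the chromosome 1 site 7 numbers were missing. Just outside the rule were 68 sites listed in all 8 libraries at 8.03 with tetracycline. The first 2 of these in genome order lie on chromosome 1 from 100485695 to 100486725, with 15.1 without and 8.03 with tetracycline, and on chromosome 2 from 61417433 to 61418241, with 10.9 and 8.03.

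In DNBrg1 and parental cells the sites were of middle strength, and in DNCHD4 cells they ranked higher in the lists. Their median density was 50.5 without and 39.5 with tetracycline in DNCHD4 cells, 26.8 and 42.2 in DNBrg1 cells, and 32.4 and 42.5 in parental cells. In each list the median site ranked above 83.9% of the hotspots of DNCHD4 cells without tetracycline, 67.7% of those with it, 54.7% to 61.5% in the DNBrg1 and parental libraries, and 49.2% in DNSnf2h cells without tetracycline. The 12592 sites listed in all 8 libraries were stronger throughout, with medians of 21.6 without and 21.8 with tetracycline in DNSnf2h cells and 66.2 and 85.6 in parental cells. Relative to parental cells without tetracycline, induced DNSnf2h cells had a median log2 ratio of -1.49 at the members (SD 0.63 across sites) and of -1.60 at the sites listed in all 8 (SD 0.62). With tetracycline, the limit of 8.03 put the members at a log2 ratio of -2.40 or lower at the median against parental cells, and the sites listed in all 8 had -1.92. The listing in both states fixed part of these values.

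The 4 strongest sites elsewhere, outside the 10 chosen by DNSnf2h density, had moderate densities in induced DNSnf2h cells. On chromosome 10 from 80217443 to 80218209, DNCHD4 cells had 231 without and 165 with tetracycline, DNBrg1 cells 138 and 235, and parental cells 162 and 241, yet induced DNSnf2h cells had 18.5. On chromosome 5 from 135114861 to 135115788, DNCHD4 cells had 221 without and 195 with tetracycline, DNBrg1 cells 109 and 241, parental cells 159 and 203, and induced DNSnf2h cells 22.6. Both sites were far weaker in induced DNSnf2h cells than in any library of the other lines. Choosing them by density in the other lines fixed part of this gap. The median member was lower too, with a log2 ratio of -1.49 against parental cells, both without tetracycline. On chromosome 3, the site from 97816850 to 97818444 had 154 and 169 in parental cells and 24.0 in induced DNSnf2h cells. The site from 30992423 to 30994283 had 121 and 201 in parental cells and 12.3 in induced DNSnf2h cells, which is 0.506 times the only local hotspot of the list with tetracycline.

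In the DNCHD4 line the median ratio was higher at the members than at the shared open sites. Its ratio without over with tetracycline played no part in the choice of the sites beyond listing in both libraries. As deposited, the median log2 ratio at the 2043 sites was 0.31 (SD 0.49 across sites), and 1575 sites (77.1%) were higher without tetracycline. The exact binomial interval lay above a ratio of 1 at 1107 members and below it at 161. Such intervals were not counted over other sites and narrow with more tags, so nothing is read from these counts. The sites listed in all 8 libraries had a median of -0.03 (SD 0.56), and 47.1% of them were higher. At least 2-fold higher were 161 members (7.88%) and at least 2-fold lower were 14 (0.685%). Over the 40670 sites listed in both DNCHD4 libraries the shares were 5.93% and 7.87%. The share of higher members was near that background, and the share of lower members was far under it. Of the sites listed in all 8 libraries, 1.68% passed 2-fold upward and 7.19% downward. Setting the median of all shared DNCHD4 sites to 0 moved the members' median to 0.28.

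The same was seen at sites that DNSnf2h cells did not list in either state. Among the 20290 sites listed in all 6 libraries of the other lines, the 4285 unlisted in both DNSnf2h libraries had a median DNCHD4 log2 ratio of 0.28 (SD 0.54), close to the members' 0.31. The 1370 sites listed with tetracycline but not without it had -0.13 (SD 0.62). The DNCHD4 ratio was thus nearly as high at sites that did not appear in the DNSnf2h list after induction, and lower at the sets that the repressed DNSnf2h library did list. The part of list limits in this was not tested. The 488 sites unlisted only in DNBrg1 cells with tetracycline, found by the same kind of rule in another line, had a DNCHD4 median of 0.11. Their parental median was 0.03 as deposited and 0.43 relative to the line's median, where 16.0% were at least 2-fold higher. A set chosen by listing in another line thus stood apart in the parental line by more than the members did in DNCHD4.

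**Figure D3:**
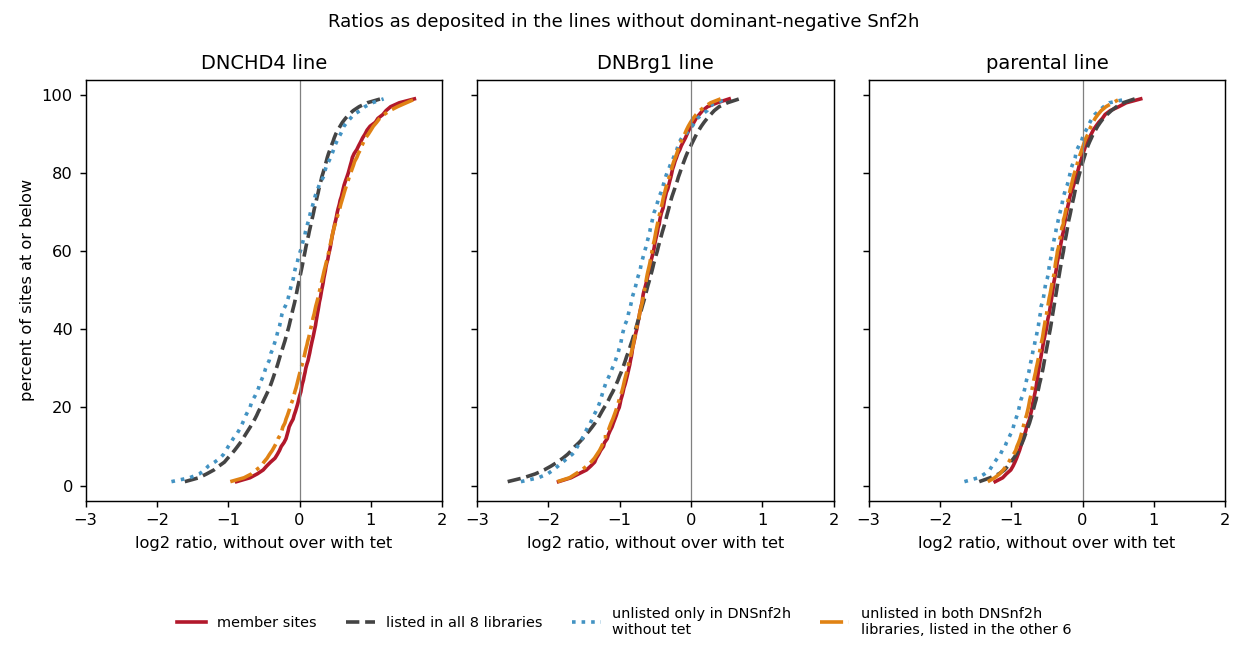
Percent of sites at or below each log2 ratio, without over with tetracycline and as deposited, in the DNCHD4, DNBrg1 and parental lines, for 4 sets of sites. In DNCHD4 cells the members and the sites unlisted in both DNSnf2h libraries run together, with medians of 0.31 and 0.28, to the right of the sets that repressed DNSnf2h cells did list, and in the other lines the curves lie closer together.

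The members stood above the shared sites at like density too. Sites were placed in bands by the geometric mean of the 2 parental libraries, which enter neither the DNCHD4 nor the DNSnf2h contrast. The median DNCHD4 log2 ratio of the members was 0.18 in the band under 20, 0.30 from 20 to under 40, 0.35 from 40 to under 80 and 0.34 at 80 or more. Sites listed in all 8 libraries had -0.30, -0.27, -0.05 and 0.03 in the same bands. The sites unlisted in both DNSnf2h libraries had 0.28, 0.28, 0.32 and 0.25, the last from 9 sites. They thus stood above the members in the band under 20 and near them from 20 to under 80. The bands held 255, 900, 788 and 100 members and 323, 2191, 4250 and 5828 sites listed in all 8. All these sites were listed in the DNCHD4 libraries, so a ratio at a weak site was bounded by the lower limits of those lists, which were 5.09 without and 8.05 with tetracycline.

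**Figure D4:**
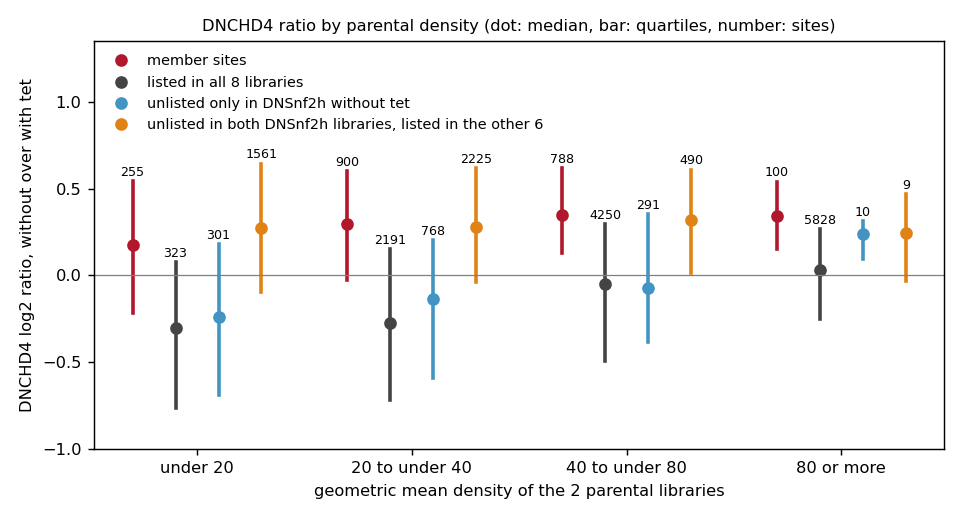
DNCHD4 log2 ratio, without over with tetracycline, by band of parental density, with dots for medians, bars for quartiles and the number of sites above each bar. Members have medians of 0.18 to 0.35, above the sites listed in all 8 libraries in each of the 4 bands. The sites unlisted in both DNSnf2h libraries have medians of 0.25 to 0.32.

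Against parental cells, both DNCHD4 libraries differed between the sets. Without tetracycline, DNCHD4 over parental density had a median log2 ratio of 0.58 at the members (SD 0.41) and 0.35 at the sites listed in all 8 (SD 0.37). With tetracycline it was -0.13 at the members (SD 0.30) and 0.08 at the sites listed in all 8 (SD 0.31). The members were therefore lower than the shared sites in the repressed DNCHD4 library and higher in the induced one, relative to parental cells. They had this in common with the 4285 sites unlisted in both DNSnf2h libraries. Those had 0.58 (SD 0.47) without and -0.16 (SD 0.33) with tetracycline.

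In parental and DNBrg1 cells the median of the members lay near that of all shared sites. In parental cells the median log2 ratio was -0.42 at the members (SD 0.41) and -0.36 at the sites listed in all 8 (SD 0.43), and -0.40 over all sites listed in both parental libraries. At least 2-fold higher were 9 members (0.441%), and at least 2-fold lower 86 (4.21%), beside 0.525% and 8.70% of all sites listed in both. In DNBrg1 cells the members had a median of -0.66 (SD 0.48) and all sites listed in both libraries -0.64. There 1 member (0.0489%) was at least 2-fold higher and 420 (20.6%) were at least 2-fold lower, beside 0.208% and 26.2%. Set relative to the median of their line, the members stood at -0.01 in both the parental and the DNBrg1 line. On that scale the DNCHD4 ratio exceeded the parental ratio at 1505 members (73.7%), by a median of 0.31 (SD 0.50), and at 36.9% of the sites listed in all 8, by a median of -0.16 (SD 0.49). The 4285 sites unlisted in both DNSnf2h libraries were close to the members, at 70.9% and a median of 0.30 (SD 0.56). The DNBrg1 ratio exceeded the parental one at 51.2% of the members.

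Some members were at least 2-fold higher without tetracycline in more than one of these lines. Of the 161 that were at least 2-fold higher in DNCHD4 as deposited, 9 were so in parental cells and 1 in DNBrg1 cells, which is every member past 2-fold upward in those lines. This overlap was not counted over other sites, so nothing is read from it. Relative to the median of each line the count in DNCHD4 was 152 (7.44%), beside 5.38% of all sites listed in both DNCHD4 libraries. Of these 152, 25 were also at least 2-fold higher in parental cells, 10 in DNBrg1 cells and 7 in both. The overlap of all 3 lines was not counted over other sites either. The 25 were 16.4% of the DNCHD4 members and 58.1% of the 43 parental ones, and at the 20290 sites listed in all 6 libraries of the other lines the same shares were 15.1% and 35.0%. The 10 were 6.58% of the DNCHD4 members and 23.8% of the 42 DNBrg1 ones, beside 9.23% and 11.5%. On this scale 43 members (2.10%) were at least 2-fold higher in parental cells and 42 (2.06%) in DNBrg1 cells, beside 2.09% and 2.81% of all sites listed in both libraries. At least 2-fold lower on this scale were 14 members (0.685%) in DNCHD4, 45 (2.20%) in DNBrg1 and 3 (0.147%) in parental cells, beside 8.51%, 6.96% and 1.82%. In all 3 lines the members thus had a smaller share of low ratios than all shared sites. They had this too in common with the 4285 sites unlisted in both DNSnf2h libraries. Those had 1.05% in DNCHD4, 2.73% in DNBrg1 and 0.653% in parental cells.

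The next 3 sites have the highest mean ratio over the other lines among the members not yet named. On chromosome 17 from 68536632 to 68537541, DNCHD4 cells had 92.4 without and 14.7 with tetracycline, 6.30-fold higher (4.97 to 8.07). DNBrg1 cells had 99.5 and 45.7, 2.18-fold higher (1.70 to 2.81), and parental cells 35.3 and 13.0, 2.71-fold higher (1.90 to 3.92). Induced DNSnf2h cells had 10.1 there, which is at least 1.255-fold above the limit and 0.930 times the lowest local value. The highest member ratio in DNCHD4 lies on chromosome 7 from 38896816 to 38897652, with 134 without and 11.6 with tetracycline, 11.6-fold higher (8.95 to 15.1). Parental cells had 47.6 and 13.3 at that site, 3.57-fold higher (2.55 to 5.10), DNBrg1 cells 35.5 and 42.2, and induced DNSnf2h cells 8.67, with 1 number missing in the list with tetracycline. On chromosome 1 from 39512909 to 39513725, DNCHD4 cells had 79.7 without and 19.0 with tetracycline, 4.20-fold higher (3.39 to 5.26), and parental cells 35.0 and 17.7, 1.98-fold higher (1.44 to 2.75). Induced DNSnf2h cells had 16.5, at least 2.06-fold above the limit.

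The 3 members most lowered over the other lines were so chiefly in DNBrg1 cells. On chromosome 15 from 73560358 to 73561309 these had 13.0 without and 95.5 with tetracycline, 7.34-fold lower (5.33 to 10.3). Parental cells had 24.7 and 44.0 there, 1.78-fold lower (1.37 to 2.33), and DNCHD4 cells 38.0 and 53.7, 1.41-fold lower (1.18 to 1.70). On chromosome 2 from 90349234 to 90349943, DNBrg1 cells had 9.19 without and 58.0 with tetracycline, 6.31-fold lower (4.27 to 9.52), and on chromosome 11 from 83347936 to 83348744 they had 13.3 and 59.2, 4.46-fold lower (3.16 to 6.36). Induced DNSnf2h cells had 9.27, 10.3 and 12.3 at the sites of chromosomes 15, 2 and 11, at least 1.15, 1.28 and 1.53 times the limit with tetracycline.

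**Figure D5:**
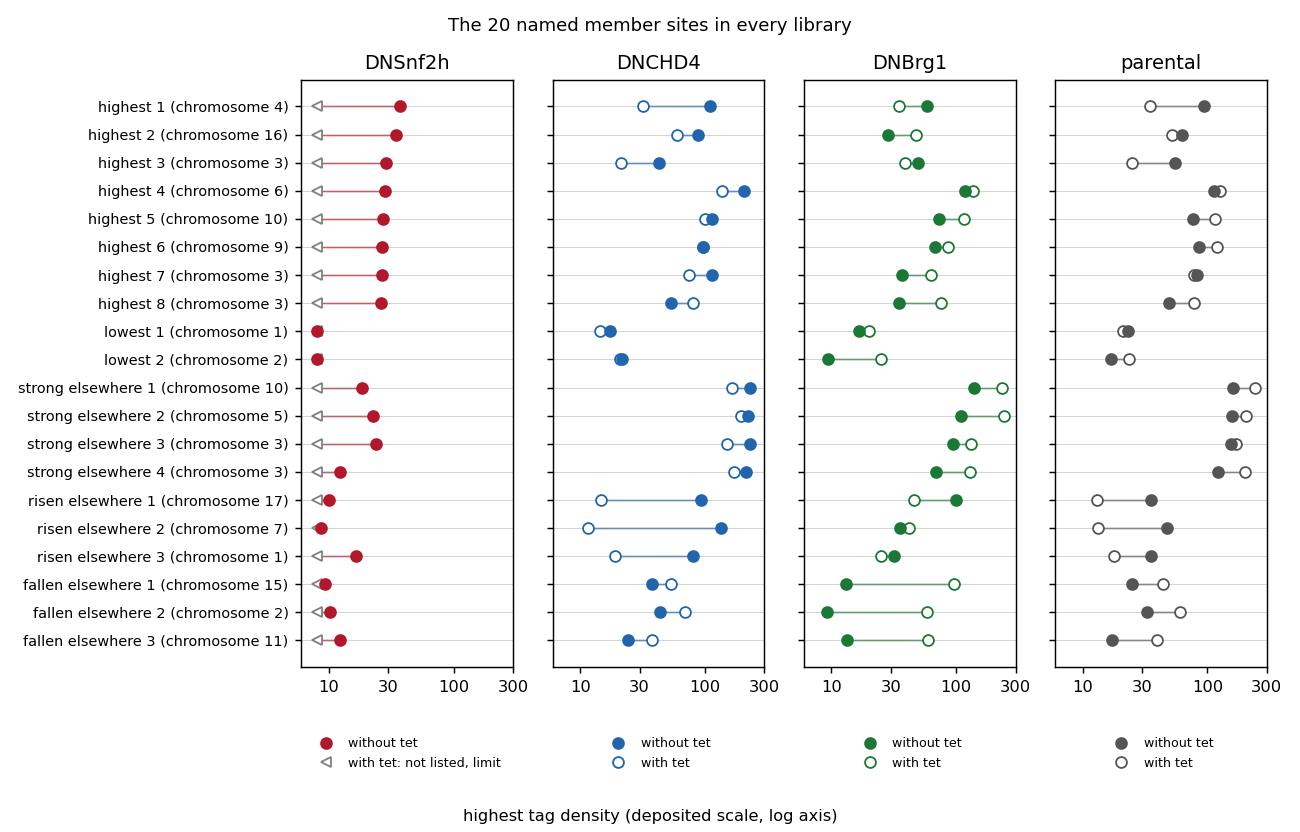
Highest tag density of the 20 sites described one by one, in each line without tetracycline (filled) and with it (open), on log axes, with an open triangle at 8.03 where DNSnf2h cells with tetracycline did not list the site. The strongest site, on chromosome 4, is higher without tetracycline in all 4 lines, and the sites on chromosomes 15, 2 and 11 at the bottom are 7.34-fold, 6.31-fold and 4.46-fold lower in DNBrg1 cells.

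The median DNCHD4 ratio differed between the sites highest and lowest in DNSnf2h density, in a direction that depended on how that density was scaled. At the 214 sites at least 2-fold above the limit the median DNCHD4 log2 ratio was 0.39, against 0.30 at the 605 sites less than 25% above it, and 27 of them (12.6%) were at least 2-fold higher in DNCHD4, against 39 (6.45%). Their parental median was -0.32, against -0.43. They were stronger sites too, with a median parental density of 59.3, against 28.7. The 1224 sites between these classes had a median DNCHD4 log2 ratio of 0.30, level with the lowest class. Of them, 95 (7.76%) were at least 2-fold higher in DNCHD4. These classes were made from the DNSnf2h values that chose the sites, so the comparison is a description. Split into 3 near-equal parts by density in induced DNSnf2h over parental cells, both without tetracycline, the members had a median DNCHD4 log2 ratio of 0.37 in the lowest part, 0.35 in the middle one and 0.18 in the highest. The shares at least 2-fold higher in DNCHD4 were 7.92%, 8.82% and 6.90%. The DNBrg1 medians were nearly level, at -0.66, -0.63 and -0.67.

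The sites were of middle width and spread over the genome. Merged sites had a median width of 912 bp (545 to 3854), against 1052 bp at sites listed in all 8, 786 bp at the sites unlisted only in DNSnf2h without tetracycline, and 718 bp at the 4285 unlisted in both DNSnf2h libraries. The hotspot itself had a median width of 487 bp in induced DNSnf2h cells and 635 to 805 bp in the 6 libraries of the other lines. At 267 sites (13.1%) at least 1 library listed more than 1 hotspot. All 20 chromosomes in the lists held members, and the share of otherwise shared sites that repressed DNSnf2h cells left unlisted ranged from 11.7% on chromosome X to 17.3% on chromosome 4. The median DNCHD4 log2 ratio of the members was above 0 on every one of these chromosomes, from 0.21 on chromosome 13 to 0.48 on chromosome 12.

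The median member was 178 kb from the next member and 31.0 kb from a site listed in all 8 libraries, and 1307 (64.0%) had such a shared site within 50 kb. Of the 1 Mb windows with a member, 536 of 1053 held just 1. The window with the most, on chromosome 12 from 112 to 113 Mb, held 9 members beside 19 sites listed in all 8.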

How the data were processed

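The data are 8 DNase-seq hotspot lists, 1 per library. The submitters' processing notes name CASAVA 1.6 and the build mm9. No source used here names the hotspot caller. Per the file headers, the authors deposited for each hotspot a highest and a mean tag density, a signal (coverage density) scaled per library. They also deposited an enrichment score (z-score) and a p-value, which were not used for results. The highest densities of a library were all whole multiples of 1 step within 0.05 tags, so density over that step gave tags. Each group has 1 library, so no test between groups was made.

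The members, named sites and comparisons were chosen with earlier results of these data known. A site's value in a library is its highest density there. Unlisted sites were set against the lowest density of the list, a bound that assumes any higher density would have been listed. Sites listed in both libraries of a line were called at 2-fold, as deposited or relative to the line's median. Named sites were the 8 members highest and the 2 lowest in induced DNSnf2h cells, then among the rest the 4 strongest in the other lines, and the 3 highest and 3 lowest by mean centred ratio, with ties in genome order. The sets unlisted in both DNSnf2h libraries and unlisted only in repressed DNBrg1 cells were added after the data were seen, as were the bands of parental density and the classes of the bound. No mm9 genome or annotation was used, so no genes or sequences are given. Alternatives were another overlap, stricter thresholds, mean density, centring, the lowest density within 50 kb and sites left out. Merging, the member rule and the tag step were tested on simulated data. Scripts ran in Python 3.11.15 (scipy 1.17.1, numpy 2.4.6, pandas 2.3.3), and figures were drawn with matplotlib 3.10.9.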

Additional observations from a re-analysis of the deposited data

How the results depend on the processing

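No paired analysis was possible within a line, because each state of each line has 1 library. A line's own contrast thus has no replicate pairs, and no test was made. Tetracycline state was not paired across lines here. The median DNCHD4 log2 ratio of the members kept its sign under the 7 alternatives run for it, at 0.28 to 0.31. Keeping only hotspots 25% or more above the lowest density of their list, in the 7 other lists only, left 1296 members, and doing so in all 8 lists left 86 members at least 2-fold above the limit of the list with tetracycline. Against the lowest density within 50 kb, 32 were at least 2-fold above. With mean in place of highest density the members' median in induced DNSnf2h cells was 3.13, the bound 5.82 and the number at least 2-fold above it 2030. The bound assumes that the lists were cut on highest density, which no source used here states. The value from mean density is therefore not read as a bound. Relative to the line's median the DNBrg1 log2 ratio was -0.012. The share of members with a hotspot of the list with tetracycline within 50 kb was 73.2% with all lists stricter, 82.6% with 7 stricter, 86.5% without sites at a missing number, and 37.5% within 10 kb. The 1 library per group and the unknown depth limit all differences.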
